A study of Rattus norvegicus with 11 samples.

Results

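The genes of vascular endothelial growth factor (VEGF) and angiopoietin signalling were examined in bladder tissues of rats with partial bladder outlet obstruction (PBOO). They were taken by symbol, as 6 ligands (Vegfa, Vegfb, Vegfc, Pgf, Angpt1 and Angpt2) and 4 receptors (Flt1, Kdr, Flt4 and Tek), which makes 10 of the 18507 genes listed. Bulk mRNA of Sprague-Dawley rats was measured in 4 groups, with 3 normal and 3 PBOO samples at week 4 and 3 normal and 2 PBOO samples at week 5. By the study's methods the rats were females about 6 months old. PBOO was set by tying a suture round the bladder neck and urethra over a catheter that was then withdrawn. The control rats had the abdominal incision alone. A further week 5 PBOO library was dropped by the study during library construction. The labels call the controls normal, and those of week 5 carry the word adult in their column names. The labels give no transgene, deletion or drug for any group. Nothing in the labels ties samples of different groups to the same animal, or states that the replicates are separate animals, so p-values measure only the spread between these samples.

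VEGF ligands are secreted proteins that act on receptor tyrosine kinases of endothelial cells. Vegfa binds Flt1 and Kdr, Vegfb and Pgf bind Flt1 only, and Vegfc binds Flt4 and also Kdr. Kdr carries most of the growth and permeability signal in blood vessels, Flt1 binds Vegfa tightly and can act as a decoy, and Flt4 is best known from lymphatic vessels. The angiopoietins act on Tek, also called Tie2: Angpt1, made by mural and stromal cells, steadies vessels, and Angpt2, made by endothelium, often counters it.

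The upstream sequences of the ligand that changed most and of its receptors are shown because the results turn on these 3 genes. They are the 250 bases before the annotated start of each gene, from the RefSeq promoter table of the rat build GRCr8, each from the plus strand and read in the direction of transcription. Vegfa lies at chr9:22452604-22452853, Flt1 at chr12:12333180-12333429 and Kdr at chr14:32571813-32572062. The table holds 2 entries for Vegfa, and the outer one, with the lower start, is shown. Capitals mark GC boxes, the letters GGGCGG searched on both strands and so printed as GGGCGG or CCGCCC.
Vegfa: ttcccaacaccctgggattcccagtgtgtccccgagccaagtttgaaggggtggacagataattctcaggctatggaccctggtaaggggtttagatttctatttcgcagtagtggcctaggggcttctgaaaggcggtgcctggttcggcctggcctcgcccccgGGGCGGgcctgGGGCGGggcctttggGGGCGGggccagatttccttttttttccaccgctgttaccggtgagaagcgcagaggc
Flt1: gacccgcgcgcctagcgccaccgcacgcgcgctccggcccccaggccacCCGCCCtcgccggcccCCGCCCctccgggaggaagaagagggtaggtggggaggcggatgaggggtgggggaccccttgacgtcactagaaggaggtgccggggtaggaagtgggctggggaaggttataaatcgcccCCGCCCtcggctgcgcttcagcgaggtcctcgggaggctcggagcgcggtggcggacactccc
Kdr: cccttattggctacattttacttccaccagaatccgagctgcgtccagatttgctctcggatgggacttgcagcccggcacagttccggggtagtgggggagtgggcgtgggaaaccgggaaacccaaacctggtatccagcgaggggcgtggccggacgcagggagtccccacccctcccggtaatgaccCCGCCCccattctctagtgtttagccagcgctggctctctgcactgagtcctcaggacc
The Vegfa and Flt1 windows each hold 3 GC boxes and the Kdr window holds 1, and 30.5% of the 33469 promoters of the same length hold at least 1. The core letters ACGTG of the hypoxia response element occur in none of these 3 windows on either strand, against 16.6% of all promoters. Sequence further upstream than these 250 bases was not searched, so the absence holds for the windows alone. The related letters GCGTG occur in neither strand of the Vegfa window, in 1 place in that of Flt1 and in 2 places in that of Kdr, against 25.9% of all promoters. The Flt1 window also holds the cyclic AMP response element TGACGTCA, which 1.59% of promoters hold. These motifs do not overlap each other. The other Vegfa entry, at chr9:22460028-22460277, holds 0 GC boxes and 0 of the other motifs, so the counts for Vegfa are those of the window shown. Vegfb, Vegfc, Pgf and Flt4 were matched in the table too, so that 7 of the 10 genes had an entry, and Angpt1, Angpt2 and Tek were not matched.

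Some features of the samples touch several results. The FPKM values (fragments mapped to a gene, scaled to exon length and to all mapped fragments) summed to between 424961 and 564343 per sample, the read depth is unknown, with 4871 genes at 0 throughout week 4 but only 403 throughout week 5. Markers of blood endothelium, the cells that carry these receptors, were present in every group, at a summed 371 to 419 FPKM at week 4 and 176 to 297 FPKM at week 5, with Ecscr and Mmrn2 at 0 in all week 4 samples. Summed smooth muscle markers (7 of 7 detected) ran from 25296 to 27377 FPKM in normal and from 50655 to 81975 FPKM in PBOO samples at week 4, and from 24539 to 28875 FPKM in normal and from 989 to 1849 FPKM in PBOO samples at week 5. Fibroblast markers (6 of 6) summed to 1034 to 1292 FPKM in normal and 74.6 to 118 FPKM in PBOO samples at week 5, whereas urothelial markers (9 of 9) summed to 6520 to 8082 and 6607 to 7508 FPKM. That sum held genes that moved apart, with 2 of 9 urothelial genes higher and 5 lower at an unadjusted p under 0.05 at week 5 (median log2 change -0.76), from the umbrella cell keratin Krt20 (-6.47) and the uroplakins Upk3b (-3.17) and Upk2 (-2.39) to the basal keratin Krt5 (3.52). At week 4 the urothelial sum was 5367 to 6611 FPKM in normal and 3294 to 3993 FPKM in PBOO samples, with 0 of 7 tested genes higher and 6 lower. Upk3b and Krt7 were at 0 in all week 4 samples, so the sums of the weeks do not hold the same genes. At this threshold 5.76% of all genes tested were higher and 26.2% lower at week 4, and 24.6% and 18.8% at week 5. Normal week 4 replicate 1 stood apart from the other normal samples of that week, at 703 FPKM of fibroblast markers against 2879 and 2893 FPKM, and at 21.6 FPKM of macrophage markers against 152 and 176 FPKM. Calls of the 10 genes that change without it are given below, while the genes of the other lists were not refitted without it. In bulk tissue, fewer cells of a type and less RNA per cell cannot be told apart.

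All 10 genes were above 0 in every sample, from 0.352 FPKM for Angpt1 to 362 FPKM for Vegfa, both in PBOO samples of week 5. They also all passed the filter of a mean of 0.5 FPKM in each comparison. Compared with the normal tissues, PBOO tissues at week 4 had no member called (0 of 10) at an adjusted p under 0.05 and a 2-fold change, where 0.371% of the 11320 genes tested were called. At week 5 only Vegfa was called by this rule, with 19.3% of the 13685 genes tested called and 7.91% called higher. Here and below, p is from limma (empirical Bayes) on log2(FPKM + 0.1), which understates the change of low genes, with Benjamini-Hochberg adjustment over all genes tested. At an unadjusted p under 0.05, Kdr alone passed at week 4, lower in PBOO (26.2% of genes lower, 5.76% higher, 32% in either direction). At week 5, Vegfa passed higher (24.6% of genes higher) and Vegfb and Angpt2 passed lower (18.8% lower, 43.4% in either direction). Counted over both directions, the members' shares at this looser threshold were below those of all genes in both weeks. The median log2 change of all genes was -0.25 at week 4, 0.12 at week 5 and 0.35 for the difference between weeks, and relative to it Vegfa stood at 0.20, 2.08 and 1.91.

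**Figure D1:**
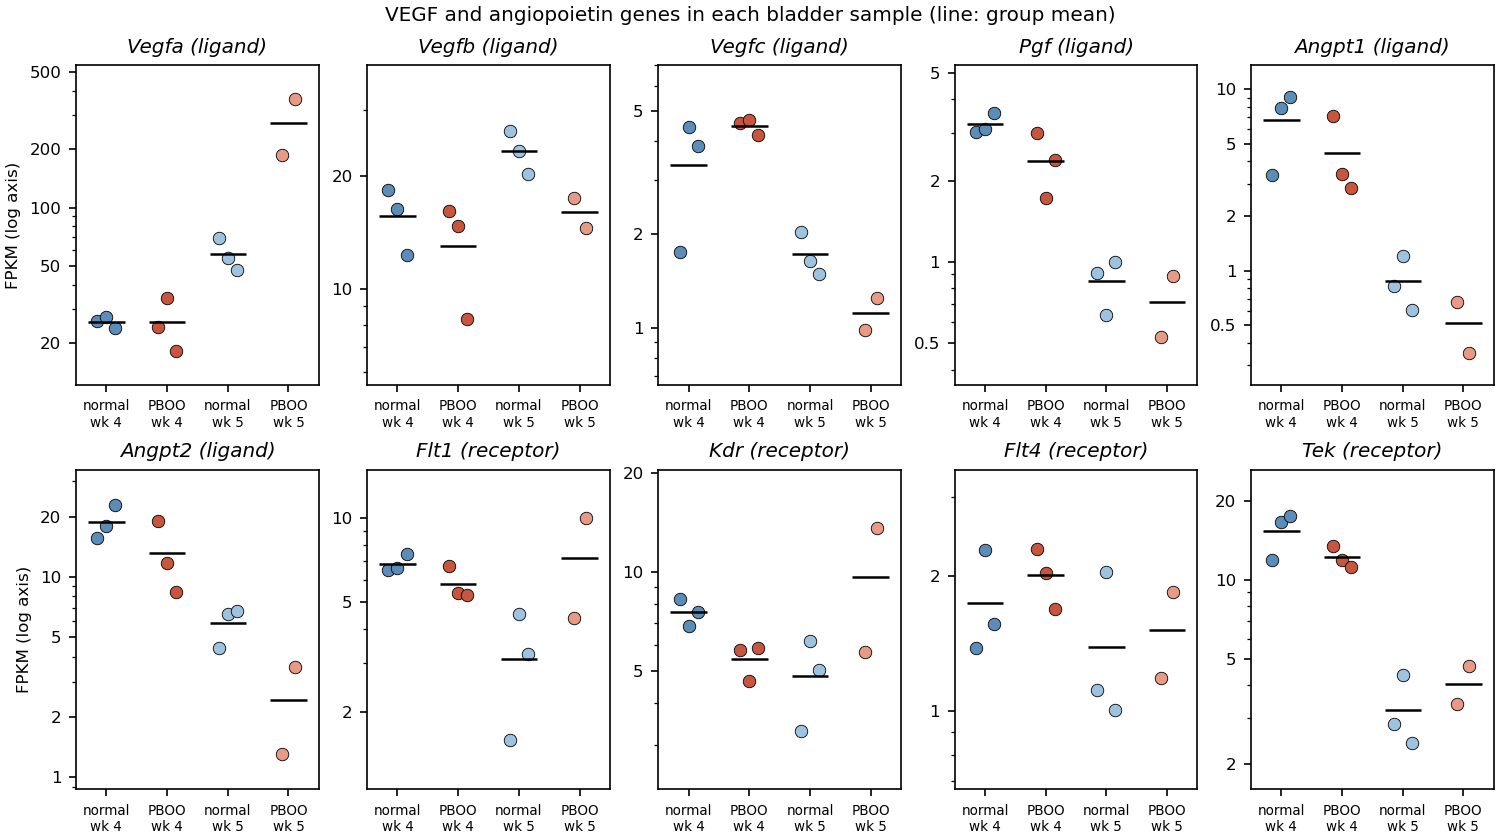
FPKM of each of the 10 genes on a log axis, by group, with a point per sample and a bar at the group mean. Vegfa is highest in every group, with the PBOO samples of week 5 at 187 and 362 FPKM above the normal samples of that week at 47.4 to 69.7 FPKM.

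Vegfa, the main ligand of blood vessel growth, rose in PBOO tissues at week 5 and was near its normal level at week 4. In normal bladders of week 4 it stood at 25.9, 27.2 and 23.9 FPKM, and in PBOO bladders of that week at 24.1, 34.2 and 18.2 FPKM. The PBOO samples lay on both sides of the normal ones, and the spread among them was wider (25.5 ± 8.10 against 25.7 ± 1.63 FPKM, SD, n = 3 each). The log2 fold change at week 4 was -0.05, with a 95% interval from -0.58 to 0.47 (adjusted p = 0.870, limma), and 0.20 under median-ratio scaling. At week 5, Vegfa stood at 69.7, 55.0 and 47.4 FPKM in normal bladders and at 187 and 362 FPKM in PBOO bladders. Both PBOO samples were above every normal sample, and they also differed from each other, with a mean of 275 ± 124 FPKM (SD, n = 2). The change was 4.59-fold, or 2.20 on the log2 scale (SE 0.32, 95% interval 1.41 to 2.99, adjusted p = 0.00585, limma). It ranked 437th from the top of the 13685 genes tested at week 5. The change was called in 12 of 12 alternatives, with log2 values from 1.72 without PBOO week 5 replicate 2 to 2.67 without replicate 1 and adjusted p from 0.000672 to 0.0295. In these 2 fits, as in all others below that leave out a week 5 PBOO sample, 1 PBOO sample of that week remains and is assumed to vary like the samples of the other groups fitted.

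The change of Vegfa also differed between the weeks. The PBOO effect at week 5 minus that at week 4 was 2.25 on the log2 scale (SE 0.41, 95% interval 1.35 to 3.16, adjusted p = 0.00223, limma interaction term). In this comparison 27.2% of the 11296 genes tested were called by the adjusted rule and 15.6% with a higher effect at week 5, and 2 of the 10 members, Vegfa and Kdr, were among the latter. At an unadjusted p under 0.05, 3 members had a higher effect at week 5 (34.6% of genes) and 1 a lower one (15.7%, 50.3% in either direction). Normal samples of the weeks were themselves apart in Vegfa, at 25.7 ± 1.63 and 57.4 ± 11.4 FPKM (SD, n = 3 each), and week, age and the sequencing of each week cannot be told apart in that difference.

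Vegfb, a ligand of Flt1 tied mostly to heart and fat metabolism, was the next most abundant VEGF. Its level at week 4 was 18.4, 16.3 and 12.3 FPKM in normal and 16.1, 14.7 and 8.32 FPKM in PBOO samples. These overlapped, with a log2 change of -0.30 (adjusted p = 0.453, limma). At week 5 it was 26.4, 23.3 and 20.2 FPKM in normal and 17.5 and 14.6 FPKM in PBOO samples. Both PBOO samples lay below all normal ones, by a log2 change of -0.53 (SE 0.16, adjusted p = 0.0596, limma), which passed the unadjusted threshold only. The unadjusted call was lost without normal week 5 replicate 1 (-0.44), without normal week 5 replicate 2 (-0.53) and without PBOO week 5 replicate 2 (-0.40), with adjusted p of 0.198, 0.143 and 0.157 (limma).

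Vegfc, the ligand of lymphatic growth, was a low gene in all groups. At week 4 it was at 1.75, 4.43 and 3.86 FPKM in normal and 4.57, 4.67 and 4.18 FPKM in PBOO samples. The log2 change was 0.51 (SE 0.34, adjusted p = 0.319, limma), and 0.11 without normal week 4 replicate 1, the low sample. At week 5 it was at 2.03, 1.64 and 1.49 FPKM in normal and 0.982 and 1.24 FPKM in PBOO samples. The groups did not overlap, and the log2 change of -0.59 missed both thresholds (SE 0.27, adjusted p = 0.155, limma). The unadjusted one was passed under median-ratio scaling (-0.68, adjusted p = 0.103) and without the mean-variance trend (-0.59, adjusted p = 0.0868, limma). The effect at week 5 minus that at week 4 was -1.09 (SE 0.47, adjusted p = 0.0859, limma). It passed the unadjusted threshold as reported and missed it in 9 of 17 alternatives. Among these was the fit without normal week 4 replicate 1, with -0.69 (adjusted p = 0.109, limma). It was also missed without PBOO week 4 replicates 1, 2 or 3, without normal week 5 replicates 1 or 2 and without PBOO week 5 replicate 1, with values from -1.14 to -0.94. Under median-ratio scaling it reached -1.37 with an adjusted p of 0.0378 (limma).

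Pgf, placental growth factor, had PBOO samples of week 4 at 3.01, 1.72 and 2.39 FPKM, all below the normal samples at 3.02, 3.12 and 3.57 FPKM, though the upper PBOO sample lay next to the lowest normal one. Pgf and Kdr were the 2 members whose groups did not overlap at week 4, both lower in PBOO, where 34.9% of all genes were separated in this direction, 6.63% in the other and 41.6% in either. The log2 change of Pgf was -0.46 (adjusted p = 0.232, limma), and -0.64 without PBOO week 4 replicate 1, which passed the unadjusted threshold (adjusted p = 0.0969). At week 5 Pgf was low in every sample, at 0.910, 0.637 and 1.0 FPKM in normal and 0.527 and 0.889 FPKM in PBOO tissues. These overlapped (log2 change -0.25, adjusted p = 0.659, limma).

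Vegfa made up a larger part of the VEGF ligand mRNA at week 5 than at week 4. Its share of the summed FPKM of Vegfa, Vegfb, Vegfc and Pgf was 52.8% to 54.8% in normal and 50.4% to 61.9% in PBOO samples at week 4. At week 5 it was 67.6% to 70.4% in normal tissues, and it reached 90.8% and 95.6% in PBOO tissues. The PBOO range enclosed the normal range at week 4 and lay wholly above it at week 5. In the difference of the shares between the weeks, week, age and the sequencing of each week cannot be told apart.

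Of the angiopoietins, Angpt2 was the higher in every sample. At week 4 Angpt2 was at 15.7, 17.9 and 22.9 FPKM in normal and 19.1, 11.8 and 8.42 FPKM in PBOO samples. PBOO replicate 1 lay within the normal range and the others below it, and the log2 change was -0.58 (SE 0.30, adjusted p = 0.217, limma). Without PBOO week 4 replicate 1 it was -0.89 (adjusted p = 0.0441, limma), still short of 2-fold. At week 5 Angpt2 was at 4.44, 6.55 and 6.74 FPKM in normal and 1.31 and 3.57 FPKM in PBOO samples. Both PBOO samples lay below the normal ones, a 2.60-fold lower level (log2 change -1.38, SE 0.44, adjusted p = 0.0654, limma), which passed the unadjusted threshold only. The unadjusted call was lost without normal week 5 replicate 2 (-1.29), without normal week 5 replicate 3 (-1.27) and without PBOO week 5 replicate 1 (-0.69), with adjusted p of 0.165, 0.177 and 0.137 (limma). The adjusted call was gained under quantile normalization (-1.33, adjusted p = 0.0405, limma) and with a spread shared by all samples (-1.38, adjusted p = 0.0333). It was also gained without PBOO week 5 replicate 2 (-2.06, adjusted p = 0.0112, limma), with the single remaining PBOO sample. The difference of the effects between weeks was -0.79 and passed neither threshold, but reached -1.48 without PBOO week 5 replicate 2 (adjusted p = 0.0488, limma).

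Vegfb, Vegfc and Angpt2 were thus the members whose PBOO samples all lay below the normal ones at week 5, where 25% of genes did so. Vegfa was the member whose samples all lay above (35.3% of genes, and 60.2% in either direction).

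Angpt1 was at 3.38, 7.84 and 9.04 FPKM in normal and 7.12, 3.42 and 2.87 FPKM in PBOO samples of week 4. Here the groups overlapped through normal replicate 1, the sample low in fibroblast markers, and PBOO replicate 1. The log2 change was -0.58 (adjusted p = 0.389, limma), and without normal week 4 replicate 1 it was -1.01 (adjusted p = 0.179), which passed the unadjusted threshold. At week 5 Angpt1 was at 0.819, 1.201 and 0.609 FPKM in normal and 0.670 and 0.352 FPKM in PBOO samples, which overlapped (log2 change -0.68, SE 0.45, adjusted p = 0.299, limma). The ratio of Angpt2 to Angpt1 ran from 2.26 to 4.54 in normal and 2.66 to 3.37 in PBOO samples of week 4, and from 4.93 to 9.66 in normal samples of week 5. At week 4 the value of 4.54 was that of normal replicate 1, and the other normal samples, at 2.26 and 2.52, lay below all PBOO samples. In the PBOO samples of week 5 it was 1.84 and 8.11, so these samples lay far from each other.

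Kdr, the main signalling receptor for Vegfa, had estimated changes of opposite sign at week 4 and week 5. At week 4 Kdr was at 8.27, 6.86 and 7.57 FPKM in normal and 5.81, 4.67 and 5.87 FPKM in PBOO samples. All PBOO samples were below all normal ones, with a log2 change of -0.47 (SE 0.16, 95% interval -0.86 to -0.08, adjusted p = 0.115, limma), which passed the unadjusted threshold only. Under median-ratio scaling, which brings the median of all genes at week 4 to -0.01, the change of Kdr was -0.22 (adjusted p = 0.480). The unadjusted call was also lost without normal week 4 replicate 1 (-0.40), without normal week 4 replicate 3 (-0.47) and without PBOO week 4 replicate 2 (-0.36), with adjusted p of 0.230, 0.261 and 0.280 (limma).

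At week 5 Kdr was at 3.31, 6.20 and 5.03 FPKM in normal and 5.72 and 13.6 FPKM in PBOO samples. PBOO replicate 1 lay within the normal range and replicate 2 above it. The log2 change was 0.90 (SE 0.44, 95% interval -0.18 to 1.98, adjusted p = 0.173, limma), with 1.52 without PBOO week 5 replicate 1 (adjusted p = 0.0415) and 0.28 without PBOO week 5 replicate 2 (adjusted p = 0.608), each with a single PBOO sample. The difference of the effects between weeks was 1.37 (SE 0.46, 95% interval 0.34 to 2.40, adjusted p = 0.0390, limma interaction term), a 2.58-fold ratio. This adjusted call was lost in 10 of 17 alternatives, with 0.75 (adjusted p = 0.154) without PBOO week 5 replicate 2 and 1.09 (adjusted p = 0.0955) under median-ratio scaling. It was also lost under quantile normalization (1.25, adjusted p = 0.0953). The other losses came without any single one of normal week 4 replicates 1, 2 and 3, PBOO week 4 replicates 2 and 3, and normal week 5 replicates 1 and 3, with values from 1.12 to 1.44 and adjusted p from 0.0561 to 0.0836 (limma).

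Flt1, which binds Vegfa, Vegfb and Pgf, had estimates of the same signs as Kdr. At week 4 Flt1 was at 6.53, 6.60 and 7.42 FPKM in normal and 6.71, 5.36 and 5.28 FPKM in PBOO samples. One PBOO sample lay among the normal ones, and the log2 change was -0.25 (adjusted p = 0.306, limma). At week 5 it was at 1.59, 4.50 and 3.24 FPKM in normal and 4.35 and 9.98 FPKM in PBOO samples. PBOO replicate 1 was just below the highest normal sample, and the log2 change was 1.18 (SE 0.53, 95% interval -0.15 to 2.51, adjusted p = 0.150, limma). It passed the unadjusted threshold without normal week 5 replicate 2 (1.497, adjusted p = 0.130) and without PBOO week 5 replicate 1 (1.77, adjusted p = 0.0847). It was 0.59 without PBOO week 5 replicate 2 (adjusted p = 0.492, limma). The effects of the weeks differed by 1.43 (SE 0.56, adjusted p = 0.0635, limma), which passed the unadjusted threshold only. That unadjusted call was lost without normal week 4 replicate 3 (1.37), PBOO week 4 replicate 2 (1.38), PBOO week 4 replicate 3 (1.37) or PBOO week 5 replicate 2 (0.84), and under median-ratio scaling (1.15). The adjusted call was gained without normal week 5 replicate 2 (1.74, adjusted p = 0.0297, limma) and without PBOO week 5 replicate 1 (2.02, adjusted p = 0.0172).

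Flt4 was the lowest of the receptors in every group mean. It was at 1.39, 2.28 and 1.56 FPKM in normal and 2.31, 2.03 and 1.69 FPKM in PBOO samples of week 4. At week 5 it was at 1.11, 2.05 and 1.01 FPKM in normal and 1.19 and 1.85 FPKM in PBOO samples. The groups overlapped in both weeks, with log2 changes of 0.21 (adjusted p = 0.590, limma) and 0.16 (adjusted p = 0.792).

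Tek, the angiopoietin receptor, was at 11.9, 16.6 and 17.5 FPKM in normal and 13.5, 11.96 and 11.2 FPKM in PBOO samples of week 4. Normal replicate 1 was within the PBOO range and the other normal samples were above it, and the log2 change of -0.31 (adjusted p = 0.248, limma) became -0.48 without normal week 4 replicate 1, which passed the unadjusted threshold (adjusted p = 0.136). At week 5 Tek was at 2.85, 4.38 and 2.42 FPKM in normal and 3.37 and 4.70 FPKM in PBOO samples. These overlapped (log2 change 0.34, adjusted p = 0.434, limma). The weeks' effects differed by 0.66 and passed neither threshold, while the unadjusted one was passed without normal week 4 replicate 1 (0.83, adjusted p = 0.0942) and without normal week 5 replicate 2 (0.90, adjusted p = 0.0489).

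**Figure D2:**
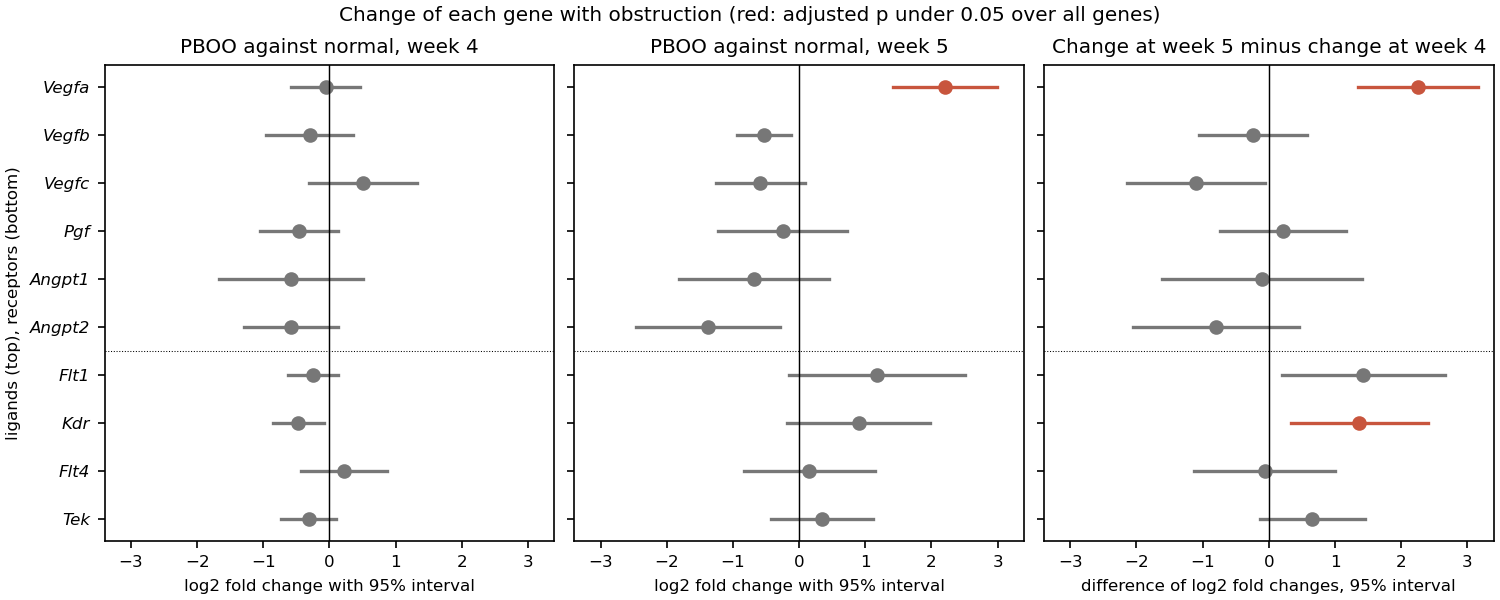
Log2 fold change of each gene in PBOO against normal tissues at week 4 and week 5, with 95% intervals from limma. A further panel shows the difference of these changes between the weeks. The interval of Vegfa at week 5 runs from 1.41 to 2.99 and does not touch 0. Those of Vegfb (-0.94 to -0.12) and Angpt2 (-2.47 to -0.28) at week 5 do not either, while those of Flt1 (-0.15 to 2.51) and Kdr (-0.18 to 1.98) do. At week 4 only that of Kdr (-0.86 to -0.08) does not.

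The order of the levels within a group, which FPKM allows since it is per length, differed between the weeks. Week, age and the sequencing of each week cannot be told apart in that difference. Vegfa led in all 4 groups, apart from the next gene in 3 of them and overlapping with Angpt2 in PBOO tissues of week 4. In normal tissues of week 4, Angpt2, Vegfb and Tek came next (18.8, 15.7 and 15.3 FPKM on average) and neighbours among them overlapped. In normal tissues of week 5, Vegfb was second (23.3 FPKM), clear of Angpt2 at 5.91 FPKM, and from Angpt2 down to Pgf each gene overlapped with the next. In PBOO tissues of week 5, Vegfb at 16.05 FPKM was again second, and Kdr, Flt1, Tek and Angpt2 followed at 9.67, 7.17, 4.04 and 2.44 FPKM, with each overlapping its neighbour. Angpt1 was last there at 0.511 ± 0.225 FPKM (SD, n = 2).

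The ligands as a group were compared with the receptors within each sample, as the mean log2(FPKM + 0.1) of the 6 ligands minus that of the 4 receptors. At week 4 this was 0.53 ± 0.13 in normal and 0.49 ± 0.24 in PBOO samples (SD, n = 3 each), which overlapped. At week 5 it was 1.25, 0.27 and 0.77 in normal and 0.16 and -0.33 in PBOO samples. The PBOO samples lay below the normal ones, and the difference of -0.85 compares with a pooled SD of 0.45. The sign depended on the weight given to Vegfa. With summed FPKM, an alternative chosen after seeing the data, the ratio of ligands to receptors at week 5 was 11.8, 5.16 and 6.62 in normal and 14.2 and 12.7 in PBOO samples, above the normal ones. Without Vegfa the summed ratio was 3.90, 1.95 and 2.57 in normal and 1.44 and 0.684 in PBOO samples, below them. No test was made of these ratios.

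**Figure D3:**
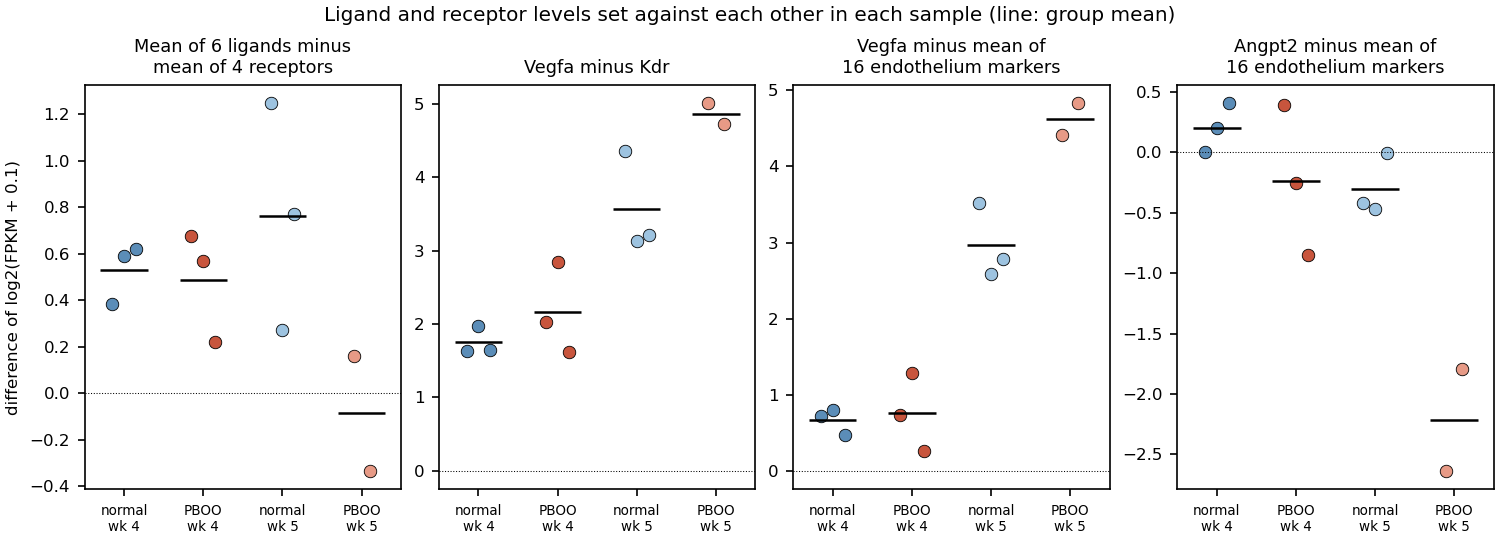
Log2 ratios within each sample, by group, with a point per sample and a bar at the mean. The mean of the 6 ligands minus that of the 4 receptors is lower in the PBOO samples of week 5 (0.16 and -0.33) than in the normal ones, while the ratio of Vegfa to Kdr is higher (5.01 and 4.72 on the log2 scale).

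Single pairs differed from the group mean. The FPKM of Vegfa was 20.5, 8.74 and 9.25 times that of Kdr in normal samples of week 5 and 32.2 and 26.4 times in PBOO samples, on the scale with 0.1 added. These did not overlap, whereas at week 4 the normal samples (3.11 to 3.92) lay within the PBOO range (3.07 to 7.20). The FPKM of Vegfa was 41.4, 11.99 and 14.2 times that of Flt1 in normal samples of week 5 and 42.1 and 35.9 times in PBOO samples. These overlapped through normal replicate 1, and the difference of 1.02 on the log2 scale compares with a pooled SD of 0.80. The members were also set against the mean log2 level of 16 blood endothelial markers. On this scale Vegfa was higher by 1.66 in PBOO than in normal samples of week 5 (pooled SD 0.44). Angpt2 was lower by 1.92 (pooled SD 0.40), with no overlap in either. The other ligands were lower too, with differences of -1.07 for Vegfb, -1.13 for Vegfc, -0.79 for Pgf and -1.22 for Angpt1, all without overlap. In their own FPKM, Pgf and Angpt1 overlapped at week 5. The share of all genes without overlap on this relative scale was not computed. In plain FPKM it was 60.2% at week 5 and 41.6% at week 4, so separation here does not mark out the members. The marker mean was itself higher by 0.54 in PBOO samples of week 5 (pooled SD 0.33), with overlap. The mean of the 4 receptors relative to these markers differed by 0.10 at week 5 (pooled SD 0.19) and -0.06 at week 4 (pooled SD 0.15), with overlap in both weeks. That mean joined receptors that moved apart at week 5, with Flt1 higher by 0.64 (pooled SD 0.47) and Flt4 lower by 0.39 (pooled SD 0.22), both without overlap. Kdr and Tek had differences of 0.36 and -0.20 and overlapped. At week 4, Kdr was lower relative to these markers by 0.33 in PBOO samples, without overlap, and the other receptors overlapped.

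The endothelial markers themselves had 7 genes up and 1 down at an unadjusted p under 0.05 among 18 tested at week 5, with a median log2 change of 0.45 against 0.12 for all genes. For this and the lists below, the same threshold was passed at week 5 by 24.6% of all genes higher and 18.8% lower, and at week 4 by 5.76% higher and 26.2% lower. Vwf, the clotting factor carrier of endothelium, was at 0.986 ± 0.334 FPKM in normal and 6.04 ± 5.28 FPKM in PBOO samples (log2 change 2.22, adjusted p = 0.0506, limma), and Sox18, Eng and Ecscr passed in the same direction. Esam, an adhesion molecule of endothelial junctions, went the other way (-0.95, adjusted p = 0.0166, limma). At week 4, 2 markers were up and 5 down among 16 tested (median -0.13 against -0.25 for all genes), the lower ones including Sox17 (-1.05), Cldn5 (-0.65), Emcn (-0.54) and Egfl7 (-0.53), and the higher ones being Esam and Eng. Of 7 pericyte markers, 4 were lower and 0 higher at week 5, Cspg4 (-2.57), Mcam (-2.14), Kcnj8 (-2.05) and Abcc9 (-1.54). At week 4, Cspg4 (1.04) and Pdgfrb (0.56) were higher and 0 lower. Lymphatic markers had 1 of 3 tested higher at week 5, Pdpn, which other cells also make, with a list median of -0.54. The lymphatic chemokine Ccl21 was at 29.7 ± 26.0 FPKM in normal and 5.99 ± 5.54 FPKM in PBOO samples (SD, n = 3 and 2, log2 change -2.28, adjusted p = 0.122, limma). Lyve1, a hyaluronan receptor, had means of 2.01 and 1.14 FPKM (-0.54, adjusted p = 0.724, limma), and both overlapped.

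**Figure D4:**
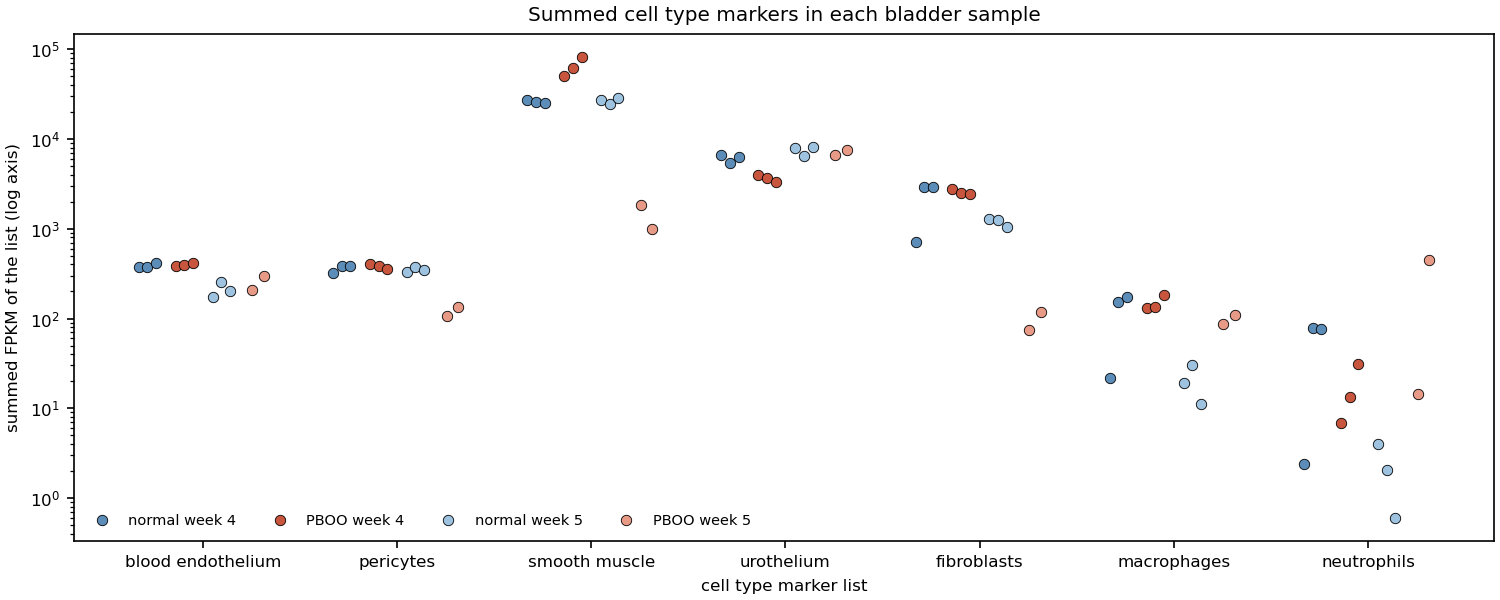
Summed FPKM of cell type marker lists in each sample, on a log axis, by group. Smooth muscle markers fall to 989 and 1849 FPKM in the PBOO samples of week 5, and blood endothelial markers stay between 176 and 419 FPKM in all samples.

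Macrophage markers summed to 87.6 and 109 FPKM in the week 5 PBOO samples against 11.3 to 30.2 FPKM in normal samples. Most of that sum was Cd68, a lysosomal protein, at 73.4 and 63.1 FPKM against 4.05 to 11.4 FPKM, and 2 of 6 markers, Cd68 and Aif1, passed the unadjusted threshold. Cd163 and Mrc1, scavenger and mannose receptors, had lower means in PBOO, at 0.312 against 0.631 FPKM and 0.684 against 1.12 FPKM, and overlapped. Neutrophil markers summed to 14.6 and 451 FPKM there, against 0.605 to 4.05 FPKM, with the higher value in PBOO replicate 2, the sample with the higher Vegfa, Flt1 and Kdr. Lymphocyte markers summed to 9.33 and 30.8 FPKM against 6.01 to 7.30 FPKM, again highest in that sample, and the T cell gene Cd3e was higher by 3.01 (adjusted p = 0.0343, limma). The part of the shifts in smooth muscle, fibroblast, pericyte and blood cell markers in the change of any member was not tested.

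Co-receptors and relatives did not change alike. Nrp2, a neuropilin that helps Vegfc and semaphorins bind, fell in PBOO tissues at week 5 from 9.19 ± 0.430 to 3.5 ± 0.512 FPKM (SD, n = 3 and 2), a log2 change of -1.37 (SE 0.16, adjusted p = 0.00291, limma). At week 4 Nrp2 was at 27.5 ± 3.21 and 30.1 ± 7.72 FPKM (log2 change 0.10, adjusted p = 0.750, limma), and the effects of the weeks differed by -1.47 (adjusted p = 0.00334). Nrp1, the partner of Kdr, had log2 changes of 0.13 and 0.0049 in the weeks, and Tie1, the orphan relative of Tek, of -0.09 and 0.39, none past a threshold. Angpt4 was at 0.694 ± 0.197 and 1.61 ± 0.953 FPKM at week 4 (log2 change 1.003, adjusted p = 0.172, limma), and was under the filter at week 5. Its PBOO samples of week 4 (0.937 to 2.70 FPKM) all lay above the normal ones (0.505 to 0.899 FPKM), as in 6.63% of all genes tested. Figf, which encodes Vegfd, was listed at 0 in all week 4 samples and was under the filter at week 5.

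Of 23 genes known to respond to or to feed back on endothelial VEGF and Notch signalling, 22 were tested at week 5 and 9 were up and 3 down at an unadjusted p under 0.05, with a median log2 change of 0.44 against 0.12 for all genes. Sh2d2a, an adaptor of Kdr that T cells also make, was higher by 2.68 (adjusted p = 0.0415, limma). It was at 1.18 and 6.08 FPKM in PBOO and 0.208 to 0.436 FPKM in normal samples, highest in PBOO replicate 2 as the lymphocyte markers were, and their part in it was not tested. Kcne3, a tip cell gene, was higher by 2.19 (adjusted p = 0.0363), and Dok2, a docking protein, by 1.4999 (adjusted p = 0.0288). The part of the blood cell shifts in these changes was not tested either. Esm1, also of tip cells, was higher by 1.27 (adjusted p = 0.0618, limma). Rcan1, a calcineurin inhibitor induced by Vegfa in endothelium and abundant in muscle, was lower by a log2 change of -1.97 (adjusted p = 0.00570), and Shb and Klf2 by -1.28 and -1.14 at adjusted p above 0.05. At week 4, 0 of 21 were up and 2 were down, the Notch target Hey1 (-1.06, adjusted p = 0.0983, limma) and Id1 (-0.96, adjusted p = 0.0559). At week 5 both instead had higher means in PBOO than in normal samples. Hey1 was at 2.68 against 1.03 FPKM, with overlap, and Id1 at 278 against 136 FPKM, without overlap. The effect at week 5 minus that at week 4 was 2.22 for Hey1 (adjusted p = 0.0206) and 1.99 for Id1 (adjusted p = 0.000383, limma). For the Notch ligand Dll4 this difference was 1.65 (adjusted p = 0.0197).

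Hypoxia genes, of which Vegfa is itself a known target, were mixed. At week 5, 1 of 18 tested was up and 4 were down (median -0.09). The glucose transporter Slc2a1 rose from 33.2 ± 2.86 to 83.5 ± 30.0 FPKM (log2 change 1.28, adjusted p = 0.0129, limma), while the mitophagy gene Bnip3 fell from 25.5 ± 4.67 to 5.61 ± 0.566 FPKM (-2.15, adjusted p = 0.00145), and Car9 had -2.22 at an adjusted p of 0.0615. At week 4, 5 of 17 were up, among them Slc2a1 (0.92), Ldha (0.86), Pgk1 (0.75) and Adm (0.64), and 3 were down, including Egln3 (-0.78) and Ndrg1 (-0.54), none at an adjusted p under 0.05. Slc2a1 was thus above normal in PBOO samples of both weeks without overlap, and Vegfa at week 5 alone.

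Inhibitors of vessel growth had 2 of 10 up and 6 down at week 5, with a median log2 change of -1.198. The inhibitors made by stromal cells, Serpinf1 (-3.43, adjusted p = 0.000288, limma), Thbs2 (-2.97, adjusted p = 0.00682) and Thbs1 (-1.36, adjusted p = 0.0472), fell, as did Sema3a (-3.07, adjusted p = 0.00248), a neuropilin ligand. The chemokine Cxcl10 rose (3.36, adjusted p = 0.00229), and Col18a1, the source of endostatin, was higher by 1.12 at an adjusted p of 0.0966. At week 4, 3 of 9 were up, Thbs1 (2.39), Serpinf1 (1.24) and Col18a1 (0.79), and 2 were down, Cxcl10 (-1.63) and Sema3a (-0.72), none at an adjusted p under 0.05. Thbs1 ran from 11.4 to 166 FPKM in PBOO and from 4.93 to 13.2 FPKM in normal samples of week 4. Its groups thus overlapped, as did those of Sema3a. Serpinf1 at week 4 was at 59.1, 204 and 224 FPKM in normal samples, with replicate 1 far below the others, and the PBOO samples lay above them, up to 398 FPKM.

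The genes most like each member over the 11 samples were sought among 9906 genes, by Pearson's r of log2(FPKM + 0.1) after the mean of each week was taken away. All samples share these libraries and groups, so the values are descriptions. Vegfa was most like Apbb3 (0.97), Mmp3 (0.96) and Blvrb (0.96), Flt1 most like Gimap5, Gimap4 and Gimap6 (0.96 each), and Kdr most like Mien1 (0.95), Flt1 (0.94) and Gar1 (0.94). Tek was most like Fmo4 (0.96), the endothelial gene Emcn (0.95) and Cdc123 (0.94), Angpt2 most like Mapkbp1 (0.94), Zfp639 (0.93) and Ccdc69 (0.93), and Flt4 most like Anpep (0.91), Efr3a (0.88) and Hsf2 (0.87). Vegfb was most like Pkn2 (0.95), Acaca (0.95) and Ppp6r3 (0.95), and Vegfc most like Tmco3 (0.96), Ctsk (0.91) and Rab3il1 (0.91). Pgf and Angpt1, under 1 FPKM on average at week 5, were not compared. Among the members, Flt1 and Kdr stood at 0.94, Vegfa stood at 0.67 with Flt1 and 0.63 with Kdr, and Vegfa and Angpt2 stood at -0.52.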

How the data were processed

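RNA-seq was done on 11 samples of bladder tissue, grouped from the sample labels. The authors trimmed the reads, mapped them with HISAT2, assembled transcripts with StringTie and deposited a single table of FPKM values of 18507 genes. The submitters' notes name the mouse build mm10 and bcl2fastq 2.0, although the table lists 36 symbols starting with RT1- (rat major histocompatibility genes) and 0 starting with H2-, so the build of the reference is unsure, and the strand of counting is not given in the sources used here. All 11 columns were used, and 0 were left without a sample. The table holds no counts. Among low values of week 4, 2.08% to 3.91% of genes shared the commonest ratio between samples, against 1.95% to 3.28% after shuffling. At week 5 the shares were 1.69% to 3.57%, mostly above the 1.28% to 1.69% found after shuffling. No depth was read from these ratios, and no counting error is given.

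FPKM was used as deposited, on the scale log2(FPKM + 0.1). limma 3.58.1 under R 4.3.3 fitted linear models with empirical Bayes moderation and a mean-variance trend, first for each week and then with an interaction of obstruction and week over all 11 samples. Genes averaging under 0.5 FPKM in the samples fitted were left out, and so, from the interaction, were genes at 0 throughout a week. Benjamini-Hochberg adjustment ran over all genes tested. A call needed an adjusted p under 0.05 and a 2-fold change, as in the study's methods, and the unadjusted p under 0.05 was counted beside it. The study's own lists of changed genes at week 5 used a stricter fold change, so the calls made here at week 5 follow another rule. Members and lists were chosen with earlier results of these data known. All 10 members and the co-receptors are named. From each other list, up to 4 genes per direction were named, those with the largest change among genes with p under 0.05 that averaged 1 FPKM or more, and for each member the 3 genes most like it. Alternatives were a pseudocount of 1, no filter, median-ratio scaling, quantile normalization, no trend, a replicate block, a spread shared by all samples and leaving out each sample. The steps were tested on simulated data with planted log2 changes of 2 and noise drawn for each gene alone. At an adjusted p under 0.05 (limma), 83.5% were recovered at week 4, 63.6% at week 5 and 70% for the difference between weeks. Shifts shared by many genes of a sample were not simulated. Ratios and figures were made in Python 3.11.15 with pandas 2.3.3, numpy 2.4.6 and matplotlib 3.10.9. The study's protein, serum, staining and single-cell data were not analysed here.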

Additional observations from a re-analysis of the deposited data

Results flagged for a closer look

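The change of Vegfa in PBOO tissues differed between the weeks by 2.25 on the log2 scale, with -0.05 at week 4 and 2.20 at week 5 (adjusted p = 0.00223, limma interaction term over all 11 samples). The change of Kdr differed by 1.37, with -0.47 at week 4 and 0.90 at week 5 (adjusted p = 0.0390, limma). Both were picked out because a test of the difference itself passed the threshold, and that of Kdr did not pass in 10 of 17 alternatives.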

How the results depend on the processing

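The rise of Vegfa at week 5 and its difference between weeks were called in 12 of 12 and 17 of 17 alternatives. Whether the replicate numbers pair the samples could not be told. At week 4 same-numbered samples had correlations of deviations from -0.02 to 0.23 (mean 0.12), and different numbers from -0.21 to 0.09 (mean -0.06). There PBOO replicates 1 and 3 correlated best with their own number and replicate 2 did not. At week 5 same-numbered samples had -0.00081 and 0.12. The deviations of 2 PBOO samples mirror each other, so the week 5 values cannot decide the question. With the replicate block, 3 members were higher at an unadjusted p under 0.05 at week 5 (Vegfa, Flt1 at 1.27 with an adjusted p of 0.0290, and Kdr at 0.95 with 0.0503, limma) in place of 1, Angpt2 at week 5 (-1.27, adjusted p = 0.0443) and the difference of Flt1 (1.51, adjusted p = 0.0115) were called, Flt4 at week 5 turned to -0.025, and 0 members had a lower effect at week 5 than week 4 in place of 1. At week 4, quantile normalization gave 1 member higher in place of 0, and 0 members were lower in place of 1 with median-ratio scaling, quantile normalization or a spread shared by all samples. That shared spread gave 3 higher and 1 lower at week 5. For the difference between weeks, a pseudocount of 1 gave 0 lower and quantile normalization 2. Signs turned for Vegfa at week 4 with median-ratio scaling (0.20) and quantile normalization (0.14), for Flt1 at week 4 with median-ratio scaling (0.0010), and for the difference between weeks of Pgf (-0.067 and -0.057, in the same order), Flt4 (0.057, quantile normalization) and Angpt1 (0.19, pseudocount 1). The ligand to receptor difference turned to 0.051 at week 4 and 0.86 at week 5 with summed FPKM. Leaving out 1 sample, members lower at week 4 ran from 0 to 3, members higher at week 5 from 1 to 3 and lower from 0 to 1, and those with a higher effect at week 5 from 1 to 4 and a lower one from 0 to 2. The ligand to receptor difference ran from -0.13 to 0.092 at week 4 and from -1.10 to -0.60 at week 5. Also leaving out 1 sample, Vegfa at week 4 ran from -0.29 to 0.16, Pgf at week 5 from -0.58 to 0.080, Flt4 at week 5 from -0.14 to 0.45, and the difference between weeks from -0.12 to 0.54 for Pgf, -0.48 to 0.33 for Angpt1 and -0.36 to 0.24 for Flt4. Causes were not tested. Genes called over the whole table at week 4 ranged from 0 to 719 over the alternatives (42 as reported), and genes at an unadjusted p under 0.05 were 652 higher and 2969 lower as reported but 1321 and 1019 with median-ratio scaling, so no count at week 4 is firm. At week 5, 2 PBOO samples limit every comparison.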
